A study of Mus musculus with 6 samples.

Results

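The survival and death genes of the Bcl2 family were followed in sorted mouse bone marrow B cells. The members were all probe sets whose only gene symbol is Bcl2, Bcl2l1, Mcl1, Bax, Bak1, Bcl2l11, Bid, Bbc3, Pmaip1 or Bad. They came to 29 of the 45037 probe sets that are not Affymetrix controls, and they represent 9 of the 10 genes, since Bax is not analysed here. Bcl2 had 5 probe sets, Bcl2l1 4, Mcl1 6, Bak1 2, Bcl2l11 5, Bid 3 and Bad 2, while Bbc3 and Pmaip1 had 1 each. The probe set with the highest mean log2 signal over all arrays stands for a gene and is called its lead probe set.

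The RNA came from C57BL/6 mice aged 8 to 12 weeks, of mixed sex, with 2 arrays in each of 3 groups. The first group held TAK1-deficient B cells with Igκ on their surface, from mice labelled mb-1/TAK1f/f, a genotype that the series title gives as TAK1-/-. The other groups held wild-type B cells with Igλ and wild-type B cells with Igκ, both from mice labelled mb-1/TAK1+/+, so that mb-1 is shared by all 3 groups. The labels leave mb-1 without explanation. It is an older name of Cd79a, a B cell gene whose locus drives a Cre recombinase used to delete floxed genes in B lineage cells. All B cells were purified by removal of cells that carry CD3, Ter119, CD11b, DX5 or Gr1, then stained for the light chain and sorted. They had received no treatment.

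Proteins of the Bcl2 family decide at the mitochondrial outer membrane whether a cell dies by apoptosis. Bcl2, Bcl-xL, which Bcl2l1 encodes, and Mcl1 hold the membrane closed. Bax and Bak1 open it and let cytochrome c escape, which starts the caspases. The BH3-only proteins, among them Bim (Bcl2l11), Bid, Puma (Bbc3), Noxa (Pmaip1) and Bad, pass on stress and bind the protectors or the openers. In B cells, Bim removes self-reactive immature cells and Bcl2 and Mcl1 keep mature and developing cells alive. TAK1, the product of Map3k7, is a kinase that carries receptor signals to NF-κB and to MAP kinases, and NF-κB is known to induce several protectors, Bcl2l1 among them.

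The TAK1-deficient arrays stand apart from the others in the measures of the arrays given here. Values are MAS5 signals, linear intensities that were scaled once per array. The median signal over all probe sets was 323 to 324 on the TAK1-deficient, 53.7 to 59.1 on the wild-type Igλ+ and 44.9 to 53.9 on the wild-type Igκ+ arrays. The spiked hybridization controls, which enter every sample in fixed amounts, had geometric means of 41197 to 47043 on the TAK1-deficient, 4474 to 4608 on the Igλ+ and 3985 to 3995 on the Igκ+ arrays. For Actb the 3′ signal over the 5′ signal, a measure of RNA quality, was 4.18 to 6.28 on the TAK1-deficient, 1.25 to 1.58 on the Igλ+ and 1.46 to 1.49 on the Igκ+ arrays. Across probe sets, log2 signals of both TAK1-deficient arrays correlated at 0.893 (Pearson's r) and those of wild-type arrays at 0.928 to 0.952. Arrays of different genotype correlated at 0.416 to 0.480. Genotype and these array properties cannot be told apart. A signal counts as at control level if it does not exceed the 95th percentile of its array's unspiked controls, which was 75.7 to 77.7 on the TAK1-deficient, 13.1 to 17.4 on the wild-type Igλ+ and 10.3 to 13.4 on the wild-type Igκ+ arrays. B cell markers were present in every group, with 0 of the 7 analysed genes at control level. Map3k7 had signals of 346 and 599 in TAK1-deficient, 2149 and 1957 in wild-type Igλ+ and 2196 and 1805 in wild-type Igκ+ cells by its lead probe set. Of its 6 probe sets 4 fell as deposited and 1 had a positive change that was not called (0.30). With the level adjustment 4 fell, and the lead, at -0.62, was not called (limma, adjusted p = 0.0983). Whether these probes lie in the deleted part is not known.

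The promoters of the member genes were searched for motifs of NF-κB, which acts below TAK1, and of forkhead factors such as Foxo3, which are known to induce Bim and Puma. RefSeq (GRCm38.p6) listed 14 promoters for 8 of the 9 genes, and Pmaip1 is not shown. On either strand of the 250 bases before the start site, a κB consensus was found in 2 of these 14 promoters, 1 of Bcl2l1 and 1 of Bbc3, and in 5.0% of 32851 promoters in all. The forkhead motif GTAAACA was found in 2 of the 14, 1 of Bcl2l11 and 1 of Bbc3, and in 3.17% of all promoters. The windows around these matches are printed for every member promoter in which a motif was found. Capitals mark the match, which lies on the opposite strand in both Bbc3 windows. A match is a description of the letters and not a binding site.
Bcl2l1 κB, chr2:152830925-152830967, minus strand: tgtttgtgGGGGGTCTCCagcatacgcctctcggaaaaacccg
Bbc3 κB, chr7:16309422-16309481, plus strand: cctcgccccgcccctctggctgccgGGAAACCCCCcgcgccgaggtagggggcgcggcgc
Bcl2l11 forkhead, chr2:128125788-128125842, plus strand: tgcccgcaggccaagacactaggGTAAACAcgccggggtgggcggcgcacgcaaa
Bbc3 forkhead, chr7:16310069-16310125, plus strand: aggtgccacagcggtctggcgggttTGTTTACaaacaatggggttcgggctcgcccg

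The first comparison set TAK1-deficient against wild-type Igκ+ cells, where genotype and the array properties given above differ together. As deposited, lead probe sets of Bcl2, of the opener Bak1 and of the BH3-only genes Bcl2l11, Bid and Bad fell in TAK1-deficient Igκ+ cells, those of Bcl2l1, Bbc3 and Mcl1 rose, the last by little, and that of Pmaip1 did not pass the test. In limma with Benjamini-Hochberg adjustment, 4 of the 29 probe sets rose and 14 fell. Of all 45037 probe sets 78.6% were called, 56.8% higher and 21.8% lower, and of the members 62.1%. The median log2 change was -0.43 over the members and 1.53 over all probe sets. The 2 groups did not overlap at 23 of the 29 members (7 higher, 16 lower) and at 90.3% of all probe sets (63.9% higher, 26.5% lower). By role, 3 of 15 anti-apoptotic probe sets rose and 6 fell (median -0.19), 0 of 2 Bak1 probe sets rose and 2 fell (-1.70), and 1 of 12 BH3-only probe sets rose and 6 fell (-0.96).

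**Figure D1:**
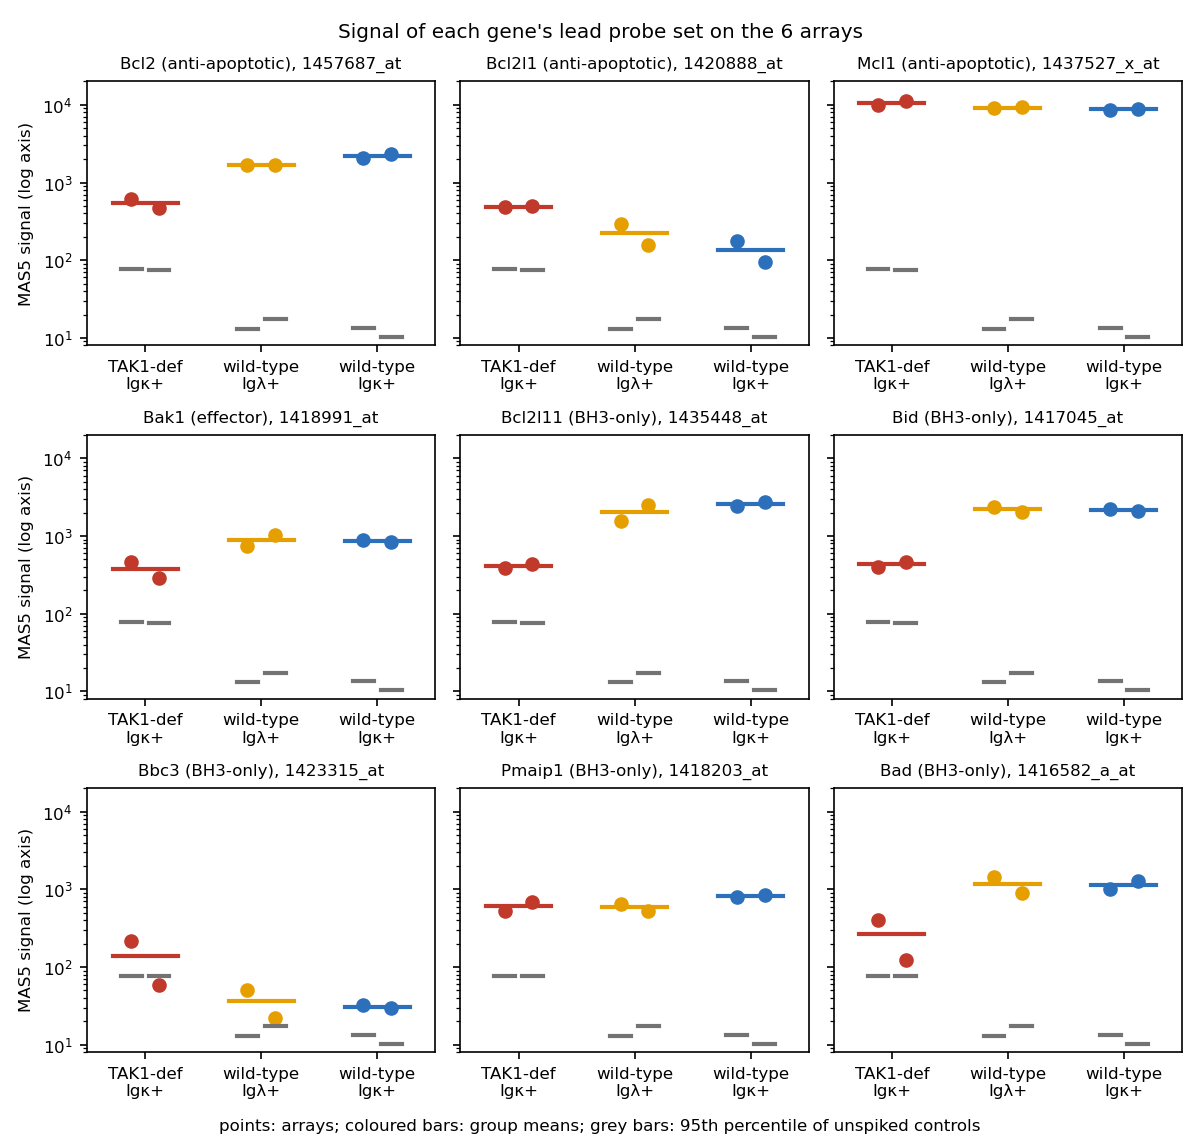
MAS5 signal (log axis) of the lead probe set of each of the 9 genes on each of the 6 arrays, with TAK1-deficient Igκ+ left, wild-type Igλ+ in the middle and wild-type Igκ+ right. Points are arrays, coloured bars group means and grey bars each array's control level. Bcl2, Bak1, Bcl2l11, Bid and Bad sit lower on both TAK1-deficient arrays than on the 4 wild-type arrays, and Bcl2l1, Bbc3 and Mcl1 sit higher.

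Bcl2, the founding protector of the family, gave different answers by probe set. Its lead probe set 1457687_at had signals of 622 and 470.5 in TAK1-deficient Igκ+, 1697 and 1699 in wild-type Igλ+ and 2073 and 2314 in wild-type Igκ+ cells. The TAK1-deficient arrays lay below all 4 wild-type arrays, and its log2 change was -1.99 ± 0.22 (SE; limma with Benjamini-Hochberg, adjusted p = 0.000141). Probe set 1437122_at of Bcl2 had 169.7 and 261 in TAK1-deficient Igκ+, 976 and 1245 in wild-type Igλ+ and 1305 and 1532 in wild-type Igκ+ cells. It showed the largest decrease of the 29 as deposited, a log2 change of -2.66 ± 0.30 (SE; limma, adjusted p = 0.000141). The other 3 probe sets of Bcl2 were not called. For 1440770_at the signals were 686 and 576 in TAK1-deficient Igκ+, 249 and 672 in wild-type Igλ+ and 529 and 440.3 in wild-type Igκ+ cells. For 1443837_x_at of Bcl2 they were 645 and 438 in TAK1-deficient, 323 and 713 in Igλ+ and 554 and 409 in Igκ+ cells, so the groups overlapped. For 1422938_at they were 267 and 354 in TAK1-deficient, 243 and 284 in Igλ+ and 336 and 728 in Igκ+ cells, with overlap as well. The log2 changes of these 3 Bcl2 probe sets were 0.37, 0.15 and -0.66, with limma adjusted p of 0.472, 0.749 and 0.171. The suffix _x marks probes that may also bind other transcripts, and why the probe sets of Bcl2 disagree was not tested.

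Bcl2l1, whose long form Bcl-xL protects pre-B and immature B cells, was higher on both TAK1-deficient arrays by its lead probe set. Signals of 1420888_at were 480.5 and 496 in TAK1-deficient Igκ+, 295 and 159 in wild-type Igλ+ and 177 and 96.2 in wild-type Igκ+ cells. The groups did not overlap, and the log2 change was 1.78 ± 0.41 (SE) (limma, adjusted p = 0.00520). Probe set 1426191_a_at of Bcl2l1 had 109 and 159 in TAK1-deficient Igκ+, 34.1 and 110.5 in wild-type Igλ+ and 34.4 and 76.8 in wild-type Igκ+ cells, a log2 change of 1.11 over Igκ+ that was not called (limma, adjusted p = 0.0831). Probe set 1420887_a_at, at 16.6 and 113 in TAK1-deficient, 24.4 and 63.5 in Igλ+ and 48.6 and 68.7 in Igκ+ cells, was not called either. The fourth Bcl2l1 probe set, 1426050_at, passed the test as higher but was at control level on all 6 arrays, so no fold is given for it. The direction of the lead probe set depends on the scaling: its log2 change was 0.36 after quantile normalization and -0.60 with median centring.

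Mcl1, the short-lived protector on which B cells depend from the pro-B stage on, kept high signals in every group. Its lead probe set 1437527_x_at had 9822 and 11077 in TAK1-deficient Igκ+, 9026 and 9356 in wild-type Igλ+ and 8574 and 8927 in wild-type Igκ+ cells. The rise over wild-type Igκ+ was small, 0.25 ± 0.09 (SE) in log2 (limma, adjusted p = 0.0355). Probe set 1456243_x_at of Mcl1 had 8810.2 and 10261 in TAK1-deficient Igκ+, 9111 and 9479 in wild-type Igλ+ and 8953 and 9000.2 in wild-type Igκ+ cells, and was not called (log2 change 0.08). The remaining 4 probe sets of Mcl1 fell. For 1416880_at the signals were 6903 and 8571 in TAK1-deficient, 9132 and 9703 in Igλ+ and 9526 and 9364 in Igκ+ cells. For 1456381_x_at of Mcl1 they were 5503 and 5987 in TAK1-deficient, 7630.3 and 8188 in Igλ+ and 8102 and 6481 in Igκ+ cells. These decreases of Mcl1 were small, with log2 changes of -0.30 and -0.34 that passed narrowly (limma, adjusted p = 0.0496 and 0.0475). For 1448503_at of Mcl1 the signals were 4108 and 5163 in TAK1-deficient, 6643 and 8150.2 in Igλ+ and 7745 and 6499 in Igκ+ cells, a log2 change of -0.62 (limma, adjusted p = 0.0103). Probe set 1416881_at of Mcl1 stood out from the other 5 with 1246 and 1110.0 in TAK1-deficient Igκ+, 2784 and 3173 in wild-type Igλ+ and 3037 and 4134 in wild-type Igκ+ cells. Its log2 change was -1.58 ± 0.20 (SE) (limma, adjusted p = 0.000282).

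Bak1, the opener of the mitochondrial membrane that was analysed here, was lower by both of its probe sets. The lead probe set 1418991_at had 461 and 284 in TAK1-deficient Igκ+, 738 and 1031 in wild-type Igλ+ and 883 and 832 in wild-type Igκ+ cells. The 2 TAK1-deficient arrays lay below the 4 wild-type arrays, and the log2 change was -1.21 ± 0.32 (SE) (limma, adjusted p = 0.0105). Probe set 1425716_s_at of Bak1 had 16.9 and 9.71 in TAK1-deficient Igκ+, 47.2 and 112 in wild-type Igλ+ and 105 and 131 in wild-type Igκ+ cells. It was at control level on both TAK1-deficient arrays, so only a bound is given: at least 1.52-fold lower, the wild-type mean set against the level of the unspiked controls (limma, adjusted p = 0.00150).

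Bcl2l11, which encodes Bim, fell by its 2 brightest probe sets. The lead probe set 1435448_at had 389 and 434 in TAK1-deficient Igκ+, 1539 and 2476 in wild-type Igλ+ and 2464 and 2734 in wild-type Igκ+ cells. Every TAK1-deficient value lay below every wild-type value, and the log2 change was -2.61 ± 0.27 (SE) (limma, adjusted p = 9.33e-05). Probe set 1456005_a_at of Bcl2l11 had 425 and 607 in TAK1-deficient, 1189 and 1344 in Igλ+ and 1488 and 1272 in Igκ+ cells, a log2 change of -1.41 ± 0.26 (SE) (limma, adjusted p = 0.00180). The other 3 probe sets of Bcl2l11 were dim and not called. Of these, 1426334_a_at had 101 and 112 in TAK1-deficient, 44.4 and 58.6 in Igλ+ and 72.5 and 41.1 in Igκ+ cells (log2 change 0.78, limma adjusted p = 0.0576). Probe set 1456006_at was at control level on 1 TAK1-deficient array and 1435449_at on both.

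Bid, which death receptor caspases cut into an active form, fell as well. Its lead probe set 1417045_at had 402 and 466 in TAK1-deficient Igκ+, 2390.4 and 2035 in wild-type Igλ+ and 2217 and 2109 in wild-type Igκ+ cells. The groups were far apart relative to their spread, with a log2 change of -2.28 ± 0.21 (SE) (limma, adjusted p = 5.51e-05). Probe set 1448560_at of Bid had 25.3 and 133 in TAK1-deficient, 200.0 and 324 in Igλ+ and 235 and 319.6 in Igκ+ cells, with 1 TAK1-deficient array at control level (log2 change -1.89 ± 0.60 SE, limma adjusted p = 0.0219). Probe set 1447873_x_at, at control level on both TAK1-deficient arrays, was not called.

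Bad, which growth factor signals keep inactive, also fell by both probe sets. The lead probe set 1416582_a_at had 402 and 123 in TAK1-deficient Igκ+, 1437 and 907 in wild-type Igλ+ and 1004 and 1264 in wild-type Igκ+ cells. The 2 TAK1-deficient values differ much from each other, yet both lie below the wild-type values, and the log2 change was -2.24 ± 0.52 (SE) (limma, adjusted p = 0.00548). Probe set 1416583_at of Bad had 255 and 173 in TAK1-deficient, 483 and 422 in Igλ+ and 448 and 659 in Igκ+ cells (log2 change -1.31 ± 0.33 SE, limma adjusted p = 0.00843). The call of 1416583_at was lost with the level adjustment and without the second TAK1-deficient or the second Igκ+ array.

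Bbc3 and Pmaip1, the Puma and Noxa genes that p53 induces after DNA damage, were read by 1 probe set each. Bbc3 (1423315_at) had 219 and 59.0 in TAK1-deficient Igκ+, 51.2 and 22.3 in wild-type Igλ+ and 32.2 and 29.7 in wild-type Igκ+ cells. It passed as higher with a log2 change of 1.50 ± 0.55 (SE) (limma, adjusted p = 0.0386), but 1 of the 2 TAK1-deficient arrays was at control level. The change of Bbc3 turned to -1.09 after quantile normalization and -0.88 with median centring. Pmaip1 (1418203_at) had 522 and 688 in TAK1-deficient Igκ+, 650.4 and 529.6 in wild-type Igλ+ and 787 and 842 in wild-type Igκ+ cells. Both TAK1-deficient values of Pmaip1 were below both Igκ+ values and overlapped those of Igλ+, and the log2 change of -0.43 ± 0.27 (SE) was not called (limma, adjusted p = 0.175).

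Across the array the change of a probe set followed its wild-type signal. When all probe sets were split into 10 bins of equal size by their mean on the 4 wild-type arrays, the median log2 change was 3.13 in the dimmest and -1.46 in the brightest bin. Of the members, 18 lay in the 3 brightest bins, where 40.2%, 75.4% and 86.0% of all probe sets were called lower, and 1 lay in the 4 dimmest. The brightest 1% of probe sets, 451 in number and with 5 Mcl1 probe sets among them, had a median of -0.38. The lead probe sets of Bcl2, Bak1 and Bad lay in the second brightest bin, with a median of -1.33, and those of Bcl2l11, Bid and Mcl1 in the brightest. Counted from the dimmest, the Pmaip1 lead lay in bin 8 (median -0.61). The Bcl2l1 lead lay in bin 7 (median 0.56, 37.1% of all its probe sets called higher). The Bbc3 lead lay in bin 5 (median 2.57, 82.7% called higher), so its log2 change of 1.50 was below the median of its bin.

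**Figure D2:**
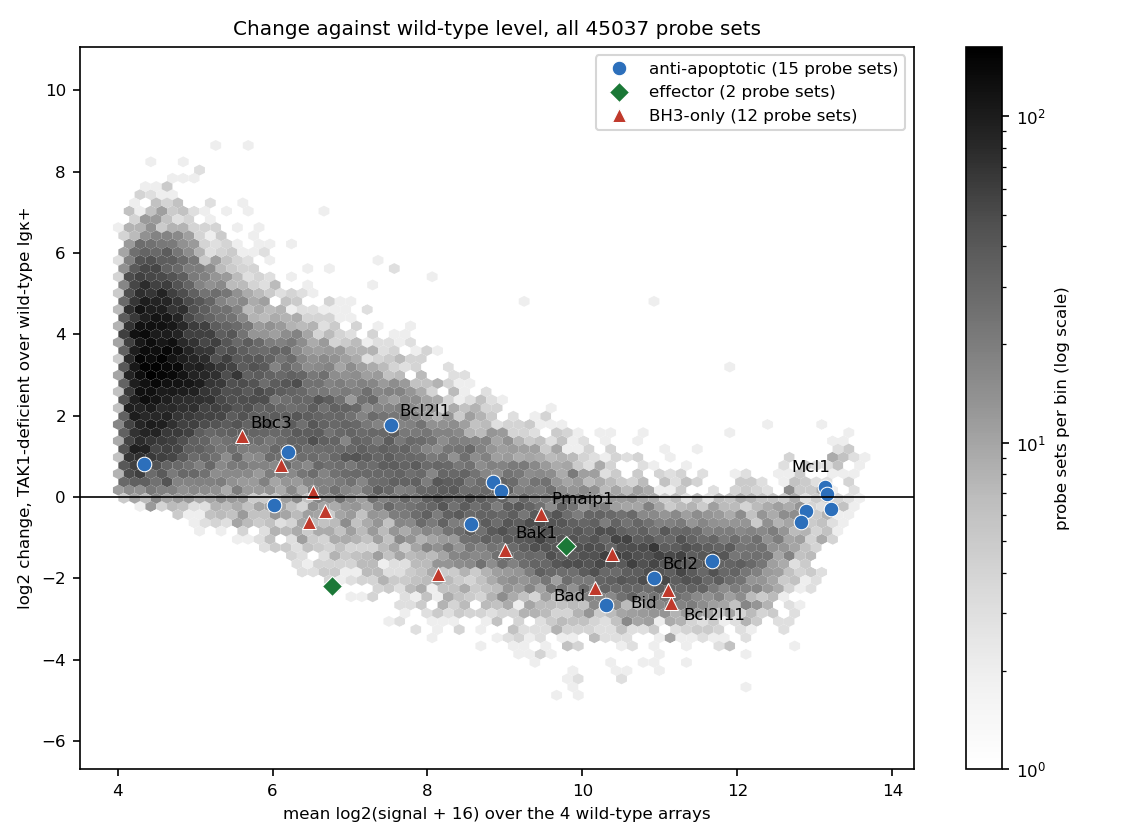
Log2 change in TAK1-deficient over wild-type Igκ+ cells against the mean log2(signal + 16) over the 4 wild-type arrays, for all 45037 probe sets (grey bins, log count scale) and the 29 Bcl2 family probe sets (symbols by role, lead probe sets named). The cloud falls from left to right and turns up at its bright end.

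A level adjustment takes this trend out: for each TAK1-deficient array, a lowess curve (span 0.2) of the log2 difference from the wild-type mean against the wild-type level was subtracted. With it, 4 members rose and 11 fell in limma (Benjamini-Hochberg), 51.7% in all, against 23.6% of all probe sets higher and 19.9% lower, and the medians were -0.80 over the members and -0.01 over all. The 4 that rose were all of Mcl1, with log2 changes of 0.58 to 1.16 (limma, adjusted p from 0.000315 to 0.00554). The adjustment left the brightest 1% of all probe sets with a median of 0.57, and 59.0% of them called higher, so the Mcl1 increase is shared by other very bright probe sets. Of the 12 BH3-only probe sets 0 rose and 7 fell (median -1.09), among them all 3 of Bid and 4 of the 5 of Bcl2l11. The exception was the second brightest of Bcl2l11, 1456005_a_at, which lost its call at -0.12 (limma, adjusted p = 0.715). Apart from the lead, the Bcl2l11 probe sets called lower here were dim and not called as deposited, as was Bid 1447873_x_at. Of these, Bcl2l11 1456006_at (0.12) and 1426334_a_at (0.78) had positive changes as deposited. The lead probe sets of Bcl2l11 and Bid fell by 1.13 and 0.80 in log2 (limma, adjusted p = 0.0122 and 0.0155). For Bcl2, 1437122_at fell by 1.40 (limma, adjusted p = 0.00749), while the lead 1457687_at, at -0.53, was not called (limma, adjusted p = 0.100). The lead probe sets of Bcl2l1 (0.91), Bak1 (-0.22), Bad (-1.05), Bbc3 (-1.02) and Pmaip1 (0.36) were not called with this adjustment.

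Of the 18 members called as deposited, 4 kept their call in every alternative that tested them, out of 18 alternatives. All 4 were lower: Bcl2 1437122_at, Bak1 1425716_s_at, Bcl2l11 1435448_at and Bid 1417045_at. Bak1 1425716_s_at, at control level on both TAK1-deficient arrays, was tested in 15 of the alternatives and Bcl2 1437122_at in 17. How many of all probe sets keep their call in this way was not counted, so the 4 are not set against a background. Across the alternatives the log2 change of the Bcl2l11 probe set ran from -5.88 to -1.13 and that of the Bid probe set from -5.55 to -0.80. The decrease of Bcl2 1437122_at ran from -5.76 to -1.40. Leaving out single arrays ended calls of 3 leads. The Mcl1 call was lost without the second TAK1-deficient array or any 1 of the 4 wild-type arrays, the Bbc3 call without the first TAK1-deficient or either Igκ+ array, and the Bak1 call without the second TAK1-deficient or the first Igκ+ array. Without Igκ+ replicate 1 only 2 members rose, and without replicate 2 only 1. Quantile normalization, median centring and scaling on the spiked controls each left 0 members higher. After quantile normalization 19 were lower, against 33.9% of all probe sets lower and 26.1% higher. With median centring 26 were lower, against 47.5% lower and 23.7% higher, and with scaling on the spiked controls 27, against 47.4% lower and 20.0% higher.

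**Figure D3:**
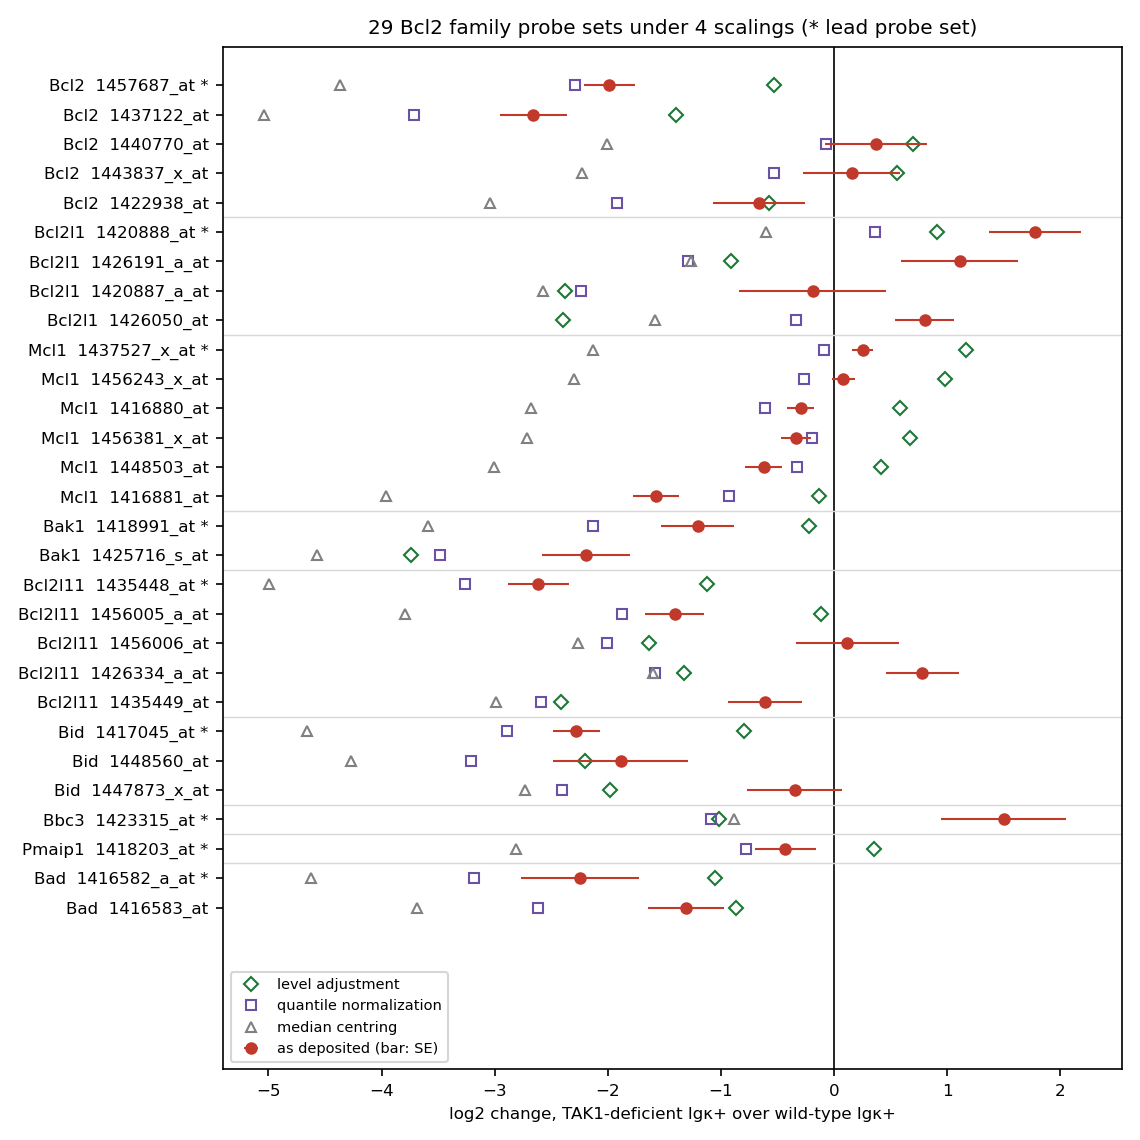
Log2 change in TAK1-deficient over wild-type Igκ+ cells of the 29 probe sets, 1 row each and grouped by gene, as deposited (filled circle, bar for the SE), with the level adjustment (diamond), after quantile normalization (square) and with median centring (triangle). The Bcl2, Bak1, Bcl2l11, Bid and Bad leads lie left of 0 under all 4 scalings, the Mcl1 lead on both sides.

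Ratios between members on the same array do not depend on the scale of that array, although they do not remove a trend with brightness. The log2 ratio of Bcl2l11 to Mcl1 was -4.66 and -4.67 on the TAK1-deficient Igκ+, -2.55 and -1.92 on the wild-type Igλ+ and -1.80 and -1.71 on the wild-type Igκ+ arrays. That of Bid to Mcl1 was -4.61 and -4.57 on the TAK1-deficient, -1.92 and -2.20 on the Igλ+ and -1.95 and -2.08 on the Igκ+ arrays. On the TAK1-deficient arrays both BH3-only genes stood lower relative to Mcl1 than on any wild-type array, and the mean ratios differed from those of wild-type Igκ+ cells by -2.91 and -2.57. The log2 ratio of Bcl2 to Mcl1 was -3.98 and -4.56 on the TAK1-deficient Igκ+, -2.41 and -2.46 on the wild-type Igλ+ and -2.05 and -1.95 on the wild-type Igκ+ arrays. Within the pair of Bcl2l11 and Bcl2 the shift was small: -0.68 and -0.12 on the TAK1-deficient, -0.14 and 0.54 on the Igλ+ and 0.25 and 0.24 on the Igκ+ arrays. The ratio of Bcl2l1 to Bcl2 moved the other way, with -0.37 and 0.08 on the TAK1-deficient, -2.52 and -3.41 on the Igλ+ and -3.55 and -4.59 on the Igκ+ arrays. All these ratios use lead probe sets. The lead of Mcl1 was the only one of its 6 probe sets called higher as deposited, while 4 fell. The shifts relative to Mcl1 would be smaller with a Mcl1 probe set that fell, such as 1416881_at (log2 change -1.58). The ratios were not tested.

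Genes that act beside the family were counted from 6 lists by lead probe set, each in limma with Benjamini-Hochberg adjustment over all probe sets. The counts are for TAK1-deficient over wild-type Igκ+ cells and stand beside 56.8% of all probe sets higher and 21.8% lower as deposited. With the level adjustment these shares were 23.6% higher and 19.9% lower. With 1 probe set per gene, 80.8% of 18193 genes were called as deposited. Of 11 other Bcl2 family genes 6 rose and 2 fell, with a median log2 change of 0.95. The BH3-only gene Hrk had 313 and 342 in TAK1-deficient Igκ+, 23.5 and 8.65 in wild-type Igλ+ and 13.7 and 1.15 in wild-type Igκ+ cells, with 1 Igκ+ array at control level (log2 change 3.93). Bok, a relative of Bax and Bak1, had 413 and 353 in TAK1-deficient, 45.8 and 24.4 in Igλ+ and 24.6 and 22.0 in Igκ+ cells (log2 change 3.34). Bcl2l14 rose by 2.75. All 3 were dim on the wild-type arrays, and with the level adjustment Hrk (0.74), Bok (0.71) and Bcl2l14 (0.75) were not called (limma, adjusted p = 0.150, 0.104 and 0.0717), while the list had 2 higher and 3 lower genes and a median of 0.62. Bcl2l10 was called too but was at control level in both groups.

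Of 13 genes of the apoptosome and the caspases 1 rose and 10 fell (median -1.25). Dffb, the nuclease that cuts DNA in apoptosis, had 28.4 and 48.2 in TAK1-deficient Igκ+, both at control level, 758 and 600 in wild-type Igλ+ and 749 and 637 in wild-type Igκ+ cells, at least 9.0-fold lower as deposited against the control level (limma, adjusted p = 4.16e-05). Endog, a mitochondrial nuclease, fell by 2.72 in log2 and Htra2, a mitochondrial protease, fell by 2.37, while Cyct, the testis form of cytochrome c, rose by 4.62 with 1 Igκ+ array at control level. Endog (-1.43) and Htra2 (-0.90) were also called lower and Cyct (1.78) higher with the level adjustment (limma, adjusted p = 0.0134, 0.0123 and 0.00854), under which 3 genes of the list rose and 4 fell (median -0.04).

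Of the 7 inhibitor of apoptosis (IAP) genes 0 rose and 4 fell (median -1.59). Birc3, which encodes cIAP2 and is a known NF-κB target, had 1393 and 1355 in TAK1-deficient Igκ+, 5342 and 4770 in wild-type Igλ+ and 4724 and 6169 in wild-type Igκ+ cells (log2 change -1.96 ± 0.17 SE, limma adjusted p = 4.25e-05). Xiap (-1.90), Birc2 (-1.63) and Birc6 (-1.22) were the others. With the level adjustment 0 rose and 1 fell (median -0.41), and the one was Birc3, at -0.75 (limma, adjusted p = 0.0126).

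Of 9 death receptor genes and adaptors 2 rose and 3 fell (median -0.26). The receptor gene Tnfrsf10b (3.35, with 1 Igκ+ array at control level) and the ligand gene Fasl (1.94) rose, and the adaptor gene Tradd (-1.88) and Casp8 (-1.33), which cuts Bid, fell. With the level adjustment 0 rose and 1 fell in that list (median 0.00), and Tnfrsf10b was at 0.18, Fasl at -1.07, Tradd at -0.44 and Casp8 at 0.15. Of 10 upstream regulators of BH3-only genes 2 rose and 6 fell (median -0.98). Trp63, a relative of p53, had 1653 and 1535 in TAK1-deficient Igκ+, 22.0 and 7.27 in wild-type Igλ+ and 9.88 and 6.31 in wild-type Igκ+ cells. Both Igκ+ arrays were at control level, and Trp63 was at least 136-fold higher as deposited (limma, adjusted p = 1.06e-05). Its log2 change was 2.88 with the level adjustment (limma, adjusted p = 0.000839) and 3.35 with spike-in scaling. Trp73, also at control level on the Igκ+ arrays, was at least 15.3-fold higher as deposited (limma, adjusted p = 0.000942), but at -0.023 in log2 with the level adjustment (limma, adjusted p = 0.972) and at 0.31 to 0.60 under the other scalings. Foxo3, which induces Bim, fell by 1.70 in log2 and Mdm2, the inhibitor of p53, fell by 1.64, and both were not called with the level adjustment (-0.31 and -0.22), which left 1 higher gene, Trp63, and 0 lower genes (median -0.04). Of 14 mitochondrial porins and Bcl2 partners 3 rose and 10 fell (median -1.10). Bcl10, an adaptor of NF-κB signalling, fell by 2.68 in log2, Fkbp8, which anchors Bcl2, fell by 1.91 and the porin gene Vdac3 fell by 1.72, while Bag3 rose by 3.04. Bcl10 was lower with the level adjustment too, by 1.41 (limma, adjusted p = 0.00196), and Fkbp8 (-0.43), Vdac3 (-0.30) and Bag3 (0.30) were not called, with 4 higher and 1 lower in the list (median -0.05).

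**Figure D4:**
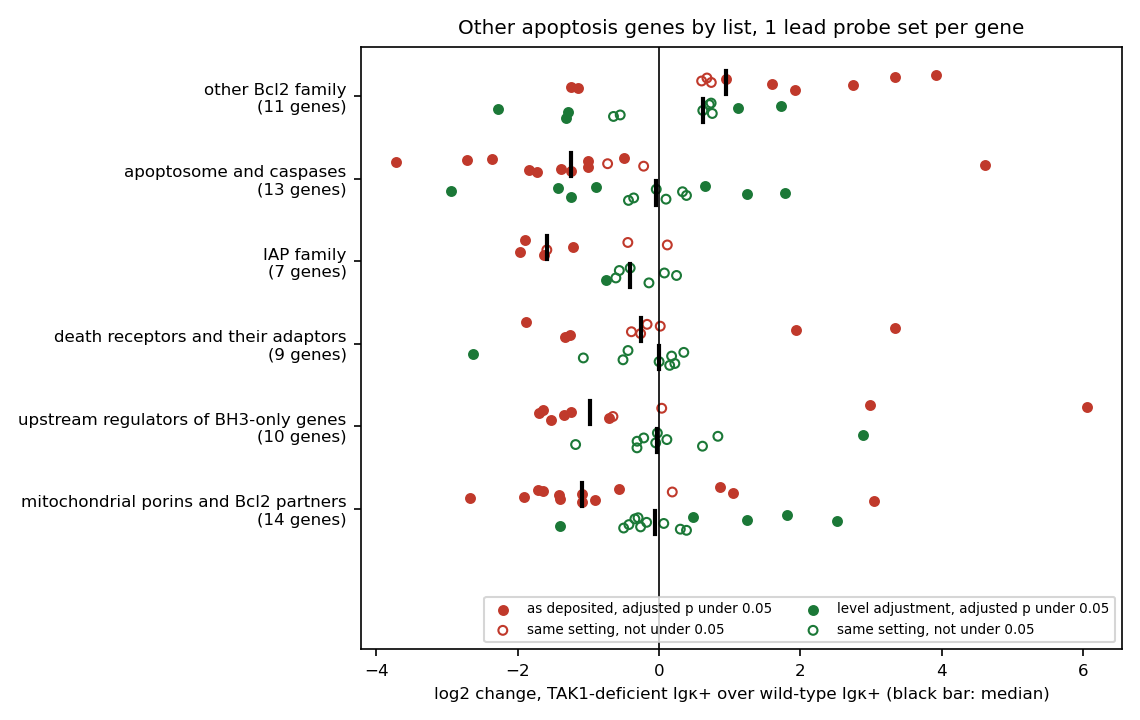
Log2 change in TAK1-deficient over wild-type Igκ+ cells of the lead probe sets of 6 lists of other apoptosis genes, as deposited (red) and with the level adjustment (green). Filled points have a limma adjusted p under 0.05 and black bars are medians, which move to between -0.41 and 0.62 with the level adjustment.

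Markers of other cell types were summed by lead probe set on each array, as deposited, so the sums carry the differences in scale between the arrays. Counts of markers that rose or fell are for TAK1-deficient over wild-type Igκ+ cells and stand beside 56.8% of all probe sets higher and 21.8% lower. Stromal and endothelial markers summed to 5244 and 5078 on the TAK1-deficient Igκ+, 1020 and 983 on the wild-type Igλ+ and 1265 and 1110 on the wild-type Igκ+ arrays, and 6 of 7 rose and 1 fell. T and NK cell markers summed to 4798 and 4716 on the TAK1-deficient, 1380 and 101 on the Igλ+ and 227 and 1988 on the Igκ+ arrays, and 5 of 7 rose and 0 fell. Both cell classes express Bcl2 family genes. Granulocyte markers (7667 and 8261 on the TAK1-deficient, 36120 and 320 on the Igλ+, 5198 and 313 on the Igκ+ arrays) and monocyte markers (2834 and 2889 on the TAK1-deficient, 10436 and 539 on the Igλ+, 2239 and 950 on the Igκ+ arrays) were highest on the first Igλ+ array. Of these lists 1 of 8 and 2 of 8 rose and 0 and 1 fell. Erythroid markers (561 and 430 on the TAK1-deficient, 1284 and 41.8 on the Igλ+, 182 and 92.7 on the Igκ+ arrays) and megakaryocyte markers (665 and 374 on the TAK1-deficient, 4748 and 83.7 on the Igλ+, 359 and 84.8 on the Igκ+ arrays) had 2 of 5 and 0 of 4 that rose and 0 that fell. Plasma cell markers summed to 4474 and 6072 on the TAK1-deficient, 12368 and 9537 on the Igλ+ and 19777 and 14654 on the Igκ+ arrays, with 1 of 5 higher and 4 lower. With the level adjustment 23.6% of all probe sets were called higher and 19.9% lower. Under it 3 of 7 stromal and endothelial and 2 of 7 T and NK cell markers rose and 0 fell. Of the monocyte, erythroid and plasma cell markers 0 rose and 1 fell in each list, and of the granulocyte and megakaryocyte markers 0 rose and 0 fell. At control level on both Igκ+ arrays were 3 erythroid markers (Hba-a1, Alas2 and Epor) and 1 stromal marker (Lepr). The part of these cells in the values of the Bcl2 family was not tested, and in bulk RNA fewer cells of a type and less RNA per cell cannot be told apart.

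The second comparison asked whether wild-type Igλ+ cells differ from wild-type Igκ+ cells, since Igλ+ cells have as a rule gone through more rounds of light chain rearrangement. No member of the family passed the test between these cells. In limma 0 of the 29 probe sets passed after Benjamini-Hochberg adjustment, against 0.0% of all 45037, and the smallest adjusted p of any probe set was 0.99999. At an unadjusted p under 0.05 there were 0 members and 891 probe sets in all (1.98%). The median log2 difference was 0.01 over the members and 0.07 over all probe sets. The groups did not overlap at 8 of the 29 members, 4 higher and 4 lower, and at 27.1% of all probe sets, 19.3% higher and 7.88% lower.

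The leads of Mcl1, Bid, Bak1 and Bad differed little between the wild-type groups, with log2 differences of 0.07, 0.03, 0.03 and 0.02. The 95% interval for Mcl1 was -0.14 to 0.29 and that for Bid -0.47 to 0.53. The lead of Bcl2 was lower on both Igλ+ arrays, at 1697 and 1699, than on the Igκ+ arrays, at 2073 and 2314, a difference of -0.36 with a 95% interval of -0.89 to 0.16. Bcl2 1422938_at had the smallest unadjusted p of the members (limma, 0.0689, adjusted 0.99999), with a difference of -0.88 and an interval of -1.84 to 0.09. For Bcl2l11 the lead difference was -0.41 (interval -1.05 to 0.23) and for Pmaip1 -0.46 (-1.10 to 0.17). For the Bcl2l1 lead it was 0.67 (-0.30 to 1.63), and the 295 and 159 of Igλ+ overlapped the 177 and 96.2 of Igκ+ cells. The intervals reached from 0.215 log2 units either side for Mcl1 1437527_x_at to 1.54 for Bcl2l1 1420887_a_at, so the number of arrays limits the precision. Arrays within a group also differed in markers of other cells. Granulocyte markers summed to 36120 and 320 on the Igλ+ and 5198 and 313 on the Igκ+ arrays, and megakaryocyte markers to 4748 and 83.7 and to 359 and 84.8. Their part in these intervals was not tested. Without the second Igλ+ array 25 of all probe sets (0.0555%) passed and 0 members. Of the 6 other apoptosis lists, 0 genes were called. Their smallest p-values before adjustment were those of Ddit3, which encodes CHOP (log2 difference 0.52, limma adjusted p = 0.99999), and Fasl (-0.71, limma adjusted p = 0.99999).

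**Figure D5:**
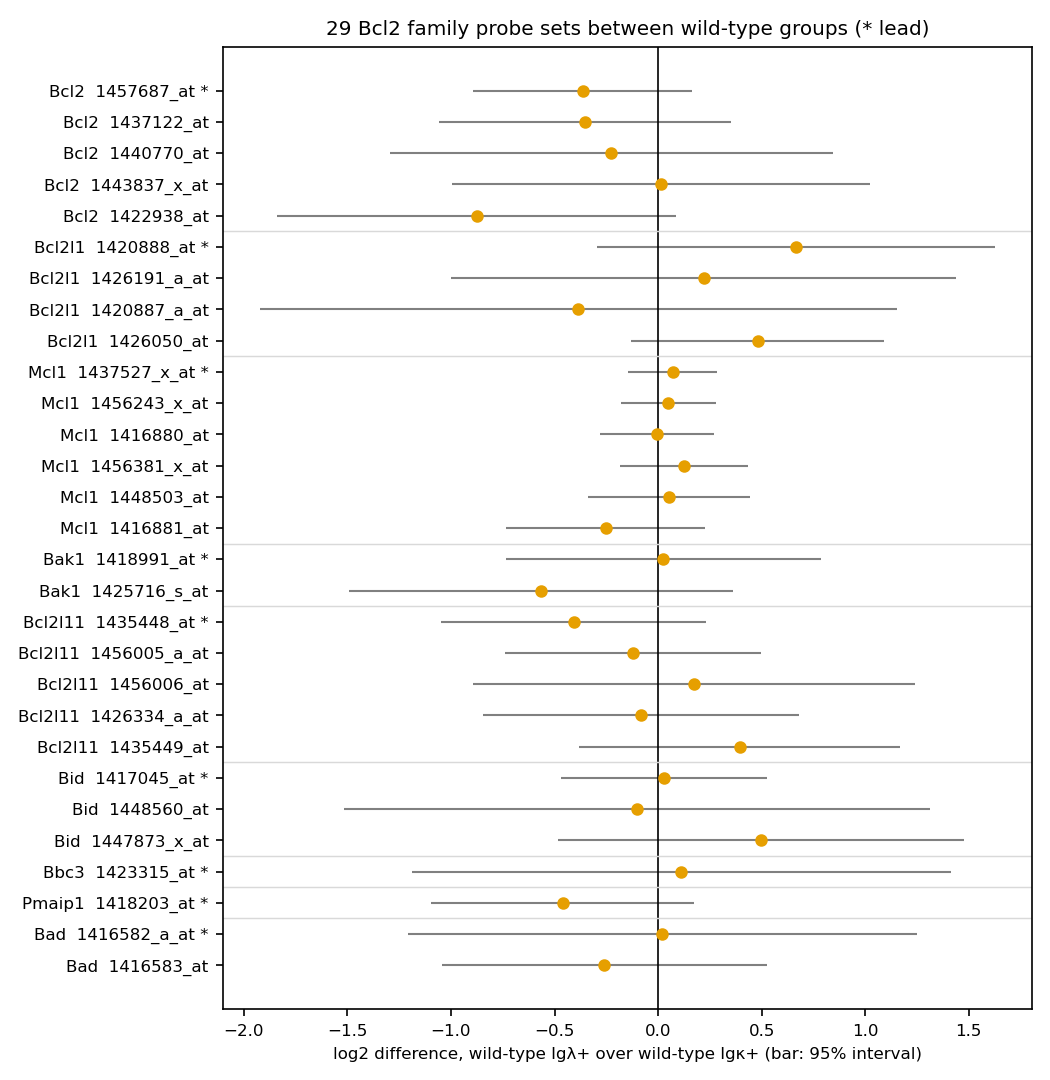
Log2 difference of wild-type Igλ+ over wild-type Igκ+ cells for the 29 probe sets, grouped by gene, with 95% intervals from limma as bars. Every interval includes 0, and those of the Mcl1 probe sets are the narrowest.

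The third comparison was of TAK1-deficient Igκ+ with wild-type Igλ+ cells, where genotype and light chain differ together. It shares the TAK1-deficient arrays with the first comparison, so the values stand side by side only. In limma 2 members rose and 14 fell, while 77.9% of all probe sets were called, 55.8% higher and 22.0% lower. The lead probe sets had log2 changes of -1.62 for Bcl2, -2.21 for Bcl2l11, -2.31 for Bid, -2.26 for Bad and -1.23 for Bak1, all lower (limma, adjusted p from 5.66e-05 to 0.00971). With the level adjustment the call was lost for the leads of Bcl2 (-0.17), Bcl2l11 (-0.72), Bad (-1.07) and Bak1 (-0.24). The Bcl2l1 lead rose by 1.11 as deposited (limma, adjusted p = 0.0386). It was at 0.24 with the level adjustment and not called, at -0.011 after quantile normalization, and called lower with median centring (-1.12) and spike-in scaling (-1.95). Its call was also lost without either TAK1-deficient array or the second Igλ+ array. Mcl1 (0.18), Bbc3 (1.39) and Pmaip1 (0.03) had leads that were not called (limma, adjusted p = 0.103, 0.0512 and 0.923). The other probe set that rose was 1426334_a_at of Bcl2l11, by 0.86 as deposited (limma, adjusted p = 0.0411), opposite to the lead of that gene. It was called lower with the level adjustment (-1.25) and after quantile normalization (-1.45), median centring (-1.37) and spike-in scaling (-1.65), and its call was lost without any 1 of the 4 arrays compared. The groups did not overlap at 21 of the 29 members, 5 higher and 16 lower, and at 88.1% of all probe sets, 61.9% higher and 26.2% lower.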

How the data were processed

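Affymetrix probe set signals of 6 arrays were analysed. The authors deposited intensities on a linear scale, computed by MAS5 according to the submitters' processing notes, and the version is not given in the sources used here. On each array the mean without the lowest and highest 2% of probe sets is 500, which is 1 scaling factor per array. The platform annotation gave probe sets their gene symbols. The titles give 3 groups of 2 arrays, and the suffix "-rep" marks replicate 2. Whether the 2 arrays of a group came from different animals is not given in the labels, so the p-values describe only how far these samples spread, and that spread may be technical.

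The members, the lists and the tests were chosen with earlier results of these data known. Signals were turned into log2(signal + 16), on which changes of dim probe sets are understated. limma 3.58.1 in R 4.3.3 fitted a mean for each group on the 6 arrays without a filter (3 residual degrees of freedom, eBayes with a trend, two-sided, Benjamini-Hochberg over 45037 probe sets, threshold 0.05). The code was tested on simulated data that held no shift across the array and no trend with brightness. That test does not cover comparisons with the TAK1-deficient arrays, which show both. All 9 genes were named in every comparison, and from each list up to 4 genes with the largest changes among those called without overlap, or the 2 with the smallest p where none was called, and the text prints some of these. Replicate numbers were not used to pair the arrays in the main fit. Deviations of same-numbered arrays correlated at 0.002 between TAK1-deficient and wild-type Igκ+ and at -0.0003 between TAK1-deficient and wild-type Igλ+ arrays. Between the wild-type groups they correlated at 0.194, so a weak link by number among the wild-type arrays is not excluded. Python 3.11.15 and matplotlib 3.10.9 were used for the tables and figures.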

Additional observations from a re-analysis of the deposited data

How the results depend on the processing

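In the comparison of TAK1-deficient with wild-type Igκ+ cells, 4 members were higher and 14 lower as deposited. The higher count was 1 with a filter at the 40th or 60th percentile and 0 after quantile normalization, median centring or spike-in scaling, and 1 to 3 with 1 array left out. The lower count was 26 after median centring, 27 after spike-in scaling and 5 for 1 probe set per gene, where only 9 features stand for the family, and 10 to 11 with 1 array left out. Against wild-type Igλ+ cells, 2 were higher and 14 lower. The higher count was 1 with a pseudocount of 1, with the filter at the 60th percentile or with 1 probe set per gene, 0 with quantile normalization, median centring or spike-in scaling, 5 with the level adjustment, and 0 to 2 with 1 array left out. The lower count was 28 after median centring, 28 after spike-in scaling, 5 for 1 probe set per gene, and 10 to 12 with 1 array left out. Between the wild-type groups both counts were 0 in every alternative. With the replicate block, which the main fit leaves out, the counts were 5 higher and 13 lower against Igκ+ and 3 and 15 against Igλ+ cells. Other counts, with pseudocount 64, eBayes without a trend and only the 4 arrays compared, were within 1.5 times the deposited ones. For the pseudocounts, the filter at the 60th percentile, the replicate block and arrays left out, TAK1-deficient counts stand without a share over all probe sets. They cannot be told apart from shifts across the array.

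Signs turned as follows for TAK1-deficient over wild-type Igκ+ cells. With the level adjustment Bcl2l1 1426191_a_at was at -0.92 and 1426050_at at -2.39, Mcl1 1416880_at at 0.58, 1456381_x_at at 0.67 and 1448503_at at 0.41, Bcl2l11 1456006_at at -1.64 and 1426334_a_at at -1.33, Bbc3 at -1.02 and Pmaip1 at 0.36. After quantile normalization, median centring and spike-in scaling, Bcl2 1440770_at was at -0.075, -2.01 and -2.94, Bcl2 1443837_x_at at -0.53, -2.23 and -3.13, Bcl2l1 1426191_a_at at -1.29, -1.27 and -1.63, Mcl1 1437527_x_at at -0.094, -2.13 and -3.20, Mcl1 1456243_x_at at -0.26, -2.30 and -3.37, Bcl2l11 1456006_at at -2.01, -2.26 and -2.43, Bcl2l11 1426334_a_at at -1.59, -1.60 and -1.90, and Bbc3 at -1.09, -0.88 and -1.08. Bcl2l1 1426050_at turned with quantile normalization (-0.34) and median centring (-1.58), and Bcl2l1 1420888_at with median centring (-0.60) and spike-in scaling (-1.43). With 1 array left out, Bcl2 1443837_x_at ran from -0.12 to 0.42, Bcl2l1 1420887_a_at from -1.18 to 0.80, Mcl1 1456243_x_at from -0.027 to 0.19, Bcl2l11 1456006_at from -0.54 to 0.77 and Bid 1447873_x_at from -0.92 to 0.22. For TAK1-deficient over wild-type Igλ+ cells, quantile normalization, median centring and spike-in scaling turned the leads of Bcl2l1 (-0.011, -1.12, -1.95), Mcl1 (-0.20, -2.05, -3.09), Bbc3 (-1.02, -0.84, -1.05) and Pmaip1 (-0.40, -2.20, -3.09), and Bcl2l11 1426334_a_at (-1.45, -1.37, -1.65). The level adjustment turned Bbc3 (-1.13) and Bcl2l11 1426334_a_at (-1.25), and Pmaip1 ran from -0.17 to 0.22 with 1 array left out.

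Between the wild-type groups, where nothing was called, median centring and spike-in scaling turned Bcl2 1443837_x_at (-0.14, -0.17), Mcl1 1437527_x_at (-0.079, -0.12), 1456243_x_at (-0.10, -0.14), 1456381_x_at (-0.024, -0.061) and 1448503_at (-0.10, -0.13), Bak1 1418991_at (-0.12, -0.16), Bid 1417045_at (-0.12, -0.16), Bbc3 (-0.037, -0.030, and -0.070 after quantile normalization) and Bad 1416582_a_at (-0.13, -0.17). With 1 array left out the ranges were -0.91 to 0.46 for Bcl2 1440770_at, -0.54 to 0.57 for Bcl2 1443837_x_at, -0.45 to 0.89 for Bcl2l1 1426191_a_at, -0.87 to 0.10 for Bcl2l1 1420887_a_at, -0.048 to 0.039 for Mcl1 1416880_at, -0.036 to 0.29 for Mcl1 1456381_x_at, -0.095 to 0.20 for Mcl1 1448503_at, -0.21 to 0.26 for Bak1 1418991_at, -0.033 to 0.38 for Bcl2l11 1456006_at, -0.40 to 0.23 for Bcl2l11 1426334_a_at, -0.087 to 0.14 for Bid 1417045_at, -0.43 to 0.23 for Bid 1448560_at, -0.075 to 1.07 for Bid 1447873_x_at, -0.29 to 0.52 for Bbc3, -0.31 to 0.35 for Bad 1416582_a_at and -0.53 to 0.010 for Bad 1416583_at. The causes were not tested. Where 1 array was left in a group, its spread was taken to be that of the remaining groups.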
